A study of Mus musculus with 8 samples.

Results

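The neurotrophins and their receptors were described here through 8 genes: Bdnf, Ntf3 and Gdnf, which encode secreted survival factors; Ntrk2, Ntrk3, Ngfr and Sort1, which encode receptors; and Vgf, whose product is a neuropeptide precursor induced by neurotrophins. They were chosen by name. The arrays carried 15 probes for these 8 genes, among 55681 probes and 21368 named genes in all, and 14 probes of 7 genes were bright enough to test. The samples were hippocampi, each of 1 mouse. Of the 8 female mice, 4 (Hydroxyurea 1 to 4) had received hydroxyurea, an inhibitor of ribonucleotide reductase, at 45 mg/kg/day in their water over 10 weeks, begun at an age of 9 to 14 weeks. The other 4 (Control 1 to 4) were untreated. All 8 were nontransgenic littermates of APPswe695/PSEN1dE9 mice on a C57BL/6J background, so neither group carried the transgenes. Hydroxyurea 1 and 2 were 24 weeks old at the end, and Hydroxyurea 3 and 4 and all Control mice were 19 weeks old.

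Neurotrophins bind Trk receptor tyrosine kinases, which drive survival, growth and synaptic plasticity through the ERK, PI3 kinase and phospholipase C pathways. BDNF acts through TrkB (Ntrk2) and neurotrophin 3 through TrkC (Ntrk3). The unprocessed proneurotrophins bind instead the p75 receptor (Ngfr) together with sortilin (Sort1) and can trigger cell death. In hippocampus, BDNF is made by excitatory neurons, is enriched in the mossy fibres of dentate granule cells, and is transcribed from several promoters of which some respond to neuronal activity through CREB.

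The Bdnf promoter with a CREB-type element is shown because the single Bdnf probe gave 1 value per mouse and did not separate the promoters. RefSeq start sites on GRCm38.p6 gave 7 Bdnf windows, each from 250 bases before to 50 bases after a start. The core of the cyclic AMP response element, TGACG or CGTCA on the other strand, was found in 1 of those 7 windows and in 20.8% of 32851 promoter windows of all genes. The whole palindrome TGACGTCA was in 0 of the 7 windows and in 1.79% of all windows. In the sequence, which lies at chr2:109692186-109692485 on the plus strand, capitals mark that core, whose first base stood at -35 relative to the start.
Bdnf promoter window 3: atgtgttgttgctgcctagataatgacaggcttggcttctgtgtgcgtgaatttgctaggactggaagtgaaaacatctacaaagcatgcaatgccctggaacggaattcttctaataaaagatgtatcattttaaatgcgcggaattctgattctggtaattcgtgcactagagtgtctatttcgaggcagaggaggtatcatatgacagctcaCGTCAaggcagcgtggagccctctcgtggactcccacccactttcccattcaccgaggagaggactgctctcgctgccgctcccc
Windows were also given for Ntf3, Ntrk2, Ngfr and Gdnf, and the core was found in 1 of 2 Gdnf windows and in none of the 2 Ntf3 windows, the Ntrk2 window or the Ngfr window. A match of letters is a description of the window and says nothing of binding.

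Signals are given as log2 of the processed spot signal less the array's own 75th percentile, so that 0 is the level of a bright probe on its own array, and levels of different probes are not compared. Of the 7 genes tested, 3 had higher and 4 had lower values in Hydroxyurea than in Control mice (51.3% of all genes were lower), and 0 passed at an adjusted p under 0.05 (limma with Benjamini-Hochberg adjustment over 16620 genes, of which 0% passed). An unadjusted p under 0.05 was found for 1 of 7, Sort1, against 9.89% of all genes. The groups did not overlap for 1 of 7, again Sort1, against 7.47% of all genes (2.38% higher and 5.09% lower). With 7 genes, 1 is near the share found over all genes in both counts. In size, the median log2 fold change of the 7 genes was -0.19, against -0.0038 over all genes tested, with Bdnf furthest from 0 at 1.19-fold lower. That median was the value of Sort1 by its brightest probe, and the other 2 probes of Sort1 had the opposite sign. With the mean of all probes of a gene, Sort1 was 0.03. By probe, the median log2 fold change of the 14 probes tested was -0.0037. Over the 7 genes, the 95% intervals of the fold change lay between 0.66 and 1.47.

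**Figure D1:**
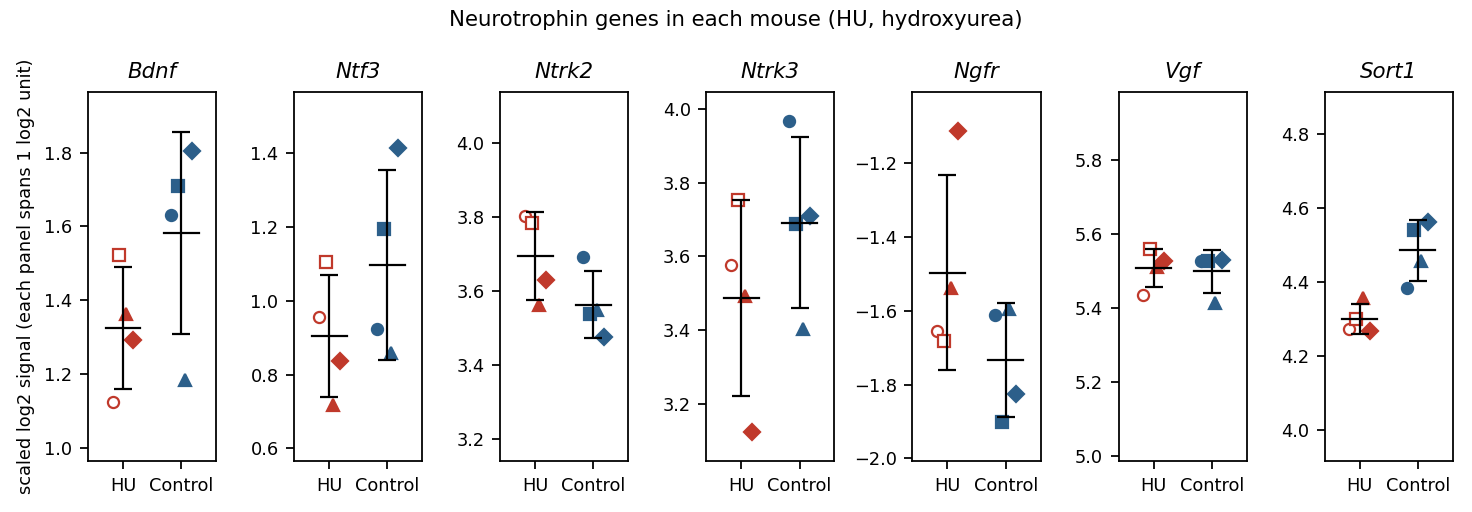
Scaled log2 signal (y axis, each panel spanning 1 log2 unit) of the 7 genes tested, with 1 point per mouse, Hydroxyurea in red to the left and Control in blue to the right, open points for 24-week mice, circle, square, triangle and diamond for mice 1 to 4, and lines for the mean and SD (n = 4). The Sort1 points of the 4 Hydroxyurea mice all sit below the lowest Control point of 4.38, while the groups overlap in the other 6 panels.

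Among the ligands, Bdnf, the main activity-regulated neurotrophin of the forebrain, had scaled log2 signals of 1.12, 1.52, 1.36 and 1.29 in Hydroxyurea 1 to 4, against 1.63, 1.71, 1.18 and 1.80 in Control 1 to 4. Of the Control mice 3 lay above every treated mouse, and Control 3 lay below all treated mice but Hydroxyurea 1. The means were 1.33 ± 0.17 in Hydroxyurea and 1.58 ± 0.27 in Control mice (SD, n = 4 each). The log2 fold change was -0.26 ± 0.15 (SE), with a 95% interval from -0.59 to 0.08 (limma adjusted p = 0.578), and a two-sided exact permutation test gave p = 0.143, where 70 assignments allow no p below 0.0286. Leaving out 1 mouse at a time gave values between -0.39 (without Control 3) and -0.18 (without Control 4). Ntf3, which encodes neurotrophin 3, had 0.96, 1.11, 0.72 and 0.84 in Hydroxyurea 1 to 4, against 0.92, 1.19, 0.86 and 1.41 in Control 1 to 4. The groups overlapped, and Control 4 held the highest value for Ntf3 as it did for Bdnf. The Ntf3 log2 fold change was -0.19 ± 0.14 (SE; limma adjusted p = 0.658), and without Control 4 it was -0.088.

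Gdnf, a ligand of the GFRA1 and RET receptors that supports dopaminergic and motor neurons, was near the limit of detection. Its probe was well above background on 0 of 4 Hydroxyurea arrays and on 2 of 4 Control arrays (Control 3 and 4), and Gdnf was therefore not tested. The scaled log2 signals were -7.52, -5.26, -7.76 and -6.85 in Hydroxyurea 1 to 4, against -6.32, -6.76, -5.90 and -5.62 in Control 1 to 4. The lowest scaled signal that counted as well above background was -6.18 to -5.04 on the Hydroxyurea arrays and -6.59 to -5.77 on the Control arrays, so the limit itself was higher on most treated arrays. No fold is given for Gdnf, because the Control mean of -6.15 lay below the treated limit of -5.47.

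Ntrk2, the receptor of BDNF, was read by 3 probes. The brightest, A_55_P2006792, had 3.80, 3.79, 3.56 and 3.63 in Hydroxyurea 1 to 4, against 3.69, 3.54, 3.55 and 3.48 in Control 1 to 4. The 24-week mice held both highest values, and the 19-week treated mice lay within the Control range. Its log2 fold change was 0.13 ± 0.08 (SE; 95% interval -0.052 to 0.32; limma adjusted p = 0.594). The value was 0.033 with age as a covariate. Probe A_51_P393454, printed in 10 spots on each array, had 2.67 ± 0.11 in Hydroxyurea and 2.72 ± 0.17 in Control mice (SD, n = 4 each). A_65_P04961 had 2.39 ± 0.14 in Hydroxyurea and 2.37 ± 0.09 in Control mice. The spots of A_51_P393454 varied within an array by an SD of 0.02 to 0.07 on the log2 scale, less than the SD between mice. The 3 probes of Ntrk2 did not move together: across the 8 mice A_51_P393454 and A_65_P04961 correlated at -0.61, and A_55_P2006792 at 0.35 and 0.0031 with them, as a description of 8 arrays. The gene makes a full-length kinase and a truncated receptor found on astrocytes. A_51_P393454 was annotated to 1 RefSeq transcript and the other 2 probes to another. Whether a probe also reads other transcripts of the gene is not given, so the receptor forms were not told apart.

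Ntrk3, the receptor of neurotrophin 3, was read by 4 probes that moved together in most mice. The brightest, A_66_P118329, had 3.58, 3.75, 3.49 and 3.13 in Hydroxyurea 1 to 4, against 3.97, 3.69, 3.40 and 3.71 in Control 1 to 4. The lowest mouse of each group was Hydroxyurea 4 and Control 3, and the groups overlapped. The log2 fold change of Ntrk3 was -0.20 ± 0.16 (SE; limma adjusted p = 0.683), and it was -0.084 without Hydroxyurea 4 and -0.11 without Control 1. Over the 4 probes of Ntrk3 the log2 fold change ran from -0.20 to -0.0022. A_66_P118329 and A_55_P2056533, annotated to 1 RefSeq transcript, had -0.20 and -0.15. A_52_P500274 and A_55_P2006808, annotated to another, had -0.0022 and -0.0051. Without Control 1, the treatment difference of A_66_P118329 minus A_55_P2006808 turned from -0.20 to 0.16. Probe A_66_P118329 correlated at 0.95 with A_55_P2056533 and at 0.80 with A_52_P500274 over the 8 mice. With A_55_P2006808 it correlated at -0.12, and at 0.90 without Control 1, where A_55_P2006808 had 1.25 against 2.15 to 2.41 in Control 2 to 4. Control 1 was also the array whose replicate spots scattered most, by a median of 10.7% against 3.21% to 3.57% on the other 7 arrays, and the part of that scatter in the single A_55_P2006808 spot was not tested.

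Ngfr, the p75 receptor that all neurotrophins bind, was read by 1 probe in 10 spots. Its scaled log2 signals were -1.65, -1.68, -1.54 and -1.11 in Hydroxyurea 1 to 4, against -1.61, -1.90, -1.60 and -1.83 in Control 1 to 4. Hydroxyurea 4 stood above the other 7 mice, while the other 3 treated mice lay within or just above the Control range. The log2 fold change was 0.24 ± 0.14 (SE; 95% interval -0.087 to 0.56; limma adjusted p = 0.586), and it was 0.11 without Hydroxyurea 4. The standard error over the spots of 1 array was 0.0082 to 0.052, against an SD of 0.26 between Hydroxyurea and of 0.15 between Control mice. Spot scatter was thus small beside the spread of Ngfr between mice.

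Sort1 encodes sortilin, the sorting receptor that carries proBDNF into secretory vesicles and pairs with p75. Its brightest probe, A_52_P590396, had 4.27, 4.30, 4.36 and 4.27 in Hydroxyurea 1 to 4, against 4.38, 4.54, 4.46 and 4.56 in Control 1 to 4. All 4 treated values were below all 4 Control values, and the nearest mice were Hydroxyurea 3 and Control 1. The log2 fold change was -0.19 ± 0.06 (SE; 95% interval -0.33 to -0.046). The exact permutation p was 0.0286, the smallest possible, the unadjusted limma p was 0.0157 and the limma adjusted p over all genes was 0.476. By unadjusted p Sort1 held rank 541 of 16620 genes. The other 2 probes of Sort1 had the opposite sign: A_51_P517145 had a log2 fold change of 0.09 ± 0.11 and A_55_P2076683 of 0.19 ± 0.18 (SE; limma adjusted p = 0.824 and 0.768 over 36750 probes). Their 95% intervals were -0.17 to 0.34 and -0.23 to 0.61. Both were far dimmer, with Control means of -2.21 and -2.37, where A_52_P590396 had 4.49. A_55_P2076683 was annotated to another RefSeq transcript than the other probes of Sort1. With the mean of the 3 probes in place of the brightest, the Sort1 value was 0.03.

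Vgf, a secreted granin induced by BDNF and by activity, varied least. It had 5.44, 5.56, 5.51 and 5.53 in Hydroxyurea 1 to 4, against 5.53, 5.53, 5.41 and 5.53 in Control 1 to 4. The 8 mice lay within 0.146 of each other. The log2 fold change was 0.01 ± 0.06 (SE; 95% interval -0.12 to 0.14), so a change of more than 1.1-fold in either direction lay outside it. The sign of this small Vgf value turned with median scaling (-0.073), quantile scaling (-0.019) and normexp background correction (-0.046).

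**Figure D2:**
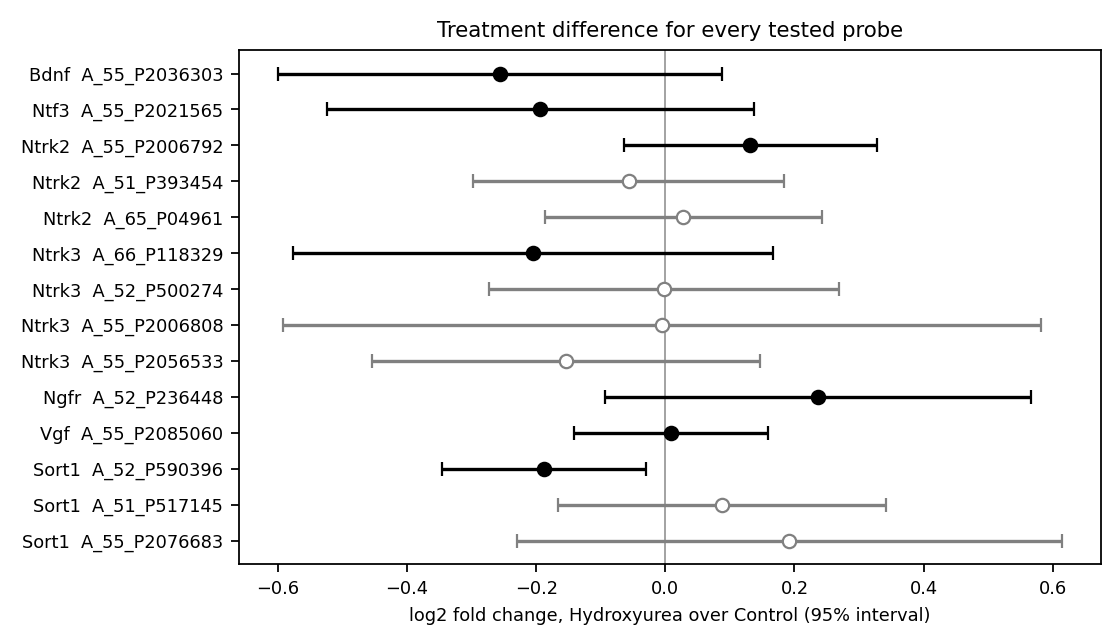
Log2 fold change of Hydroxyurea over Control (x axis) with its 95% interval for the 14 probes tested (rows), from the limma fit of 36750 probes, with filled black points for the probe that stands for its gene and open grey points for its other probes. The interval of A_52_P590396 of Sort1 lies below 0, and the intervals of the other 13 probes cross 0.

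Taken by probe, 6 of the 14 probes had higher and 8 had lower values in Hydroxyurea mice, with a median log2 fold change of -0.0037. An unadjusted p under 0.05 was found for 1 of 14, against 8.5% of all probes (3.22% higher and 5.29% lower), and the groups did not overlap for 1 of 14, against 6.4% of all probes. Whether probes of 1 gene changed unequally was tested on the difference of 2 probes within each array, for the 12 pairs of Ntrk2, Ntrk3 and Sort1. A value subtracted from every probe of an array cancels in that difference. Quantile scaling and z scores do not cancel, and the differences were not tested with them. The smallest exact permutation p was 0.0571, found for 1 pair each of Ntrk2 and Ntrk3, and its adjusted value over the 12 pairs was 0.343, so none passed. For Ntrk2, A_55_P2006792 minus A_51_P393454 was 1.03 ± 0.12 in Hydroxyurea and 0.84 ± 0.11 in Control mice (SD, n = 4 each). For Ntrk3, A_66_P118329 minus A_52_P500274 was 0.97 ± 0.12 in Hydroxyurea and 1.17 ± 0.13 in Control mice (SD, n = 4 each). For Sort1, A_52_P590396 minus A_51_P517145 was 6.43 ± 0.06 in Hydroxyurea and 6.70 ± 0.26 in Control mice (SD, n = 4 each; exact permutation p = 0.143). Each of the 12 pairs was also tested with each of the 8 mice left out in turn, without adjustment for that number of tests. The exact permutation p was 0.0286, the smallest possible there, in 5 cases: that Ntrk3 pair without Hydroxyurea 2 (-0.24), that Sort1 pair without Control 1 (-0.40), Ntrk3 A_52_P500274 minus A_55_P2006808 without Control 1 (0.30), Ntrk3 A_52_P500274 minus A_55_P2056533 without Control 4 (0.19) and Ntrk3 A_55_P2006808 minus A_55_P2056533 without Control 1 (-0.16, against 0.15 with all mice).

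**Figure D3:**
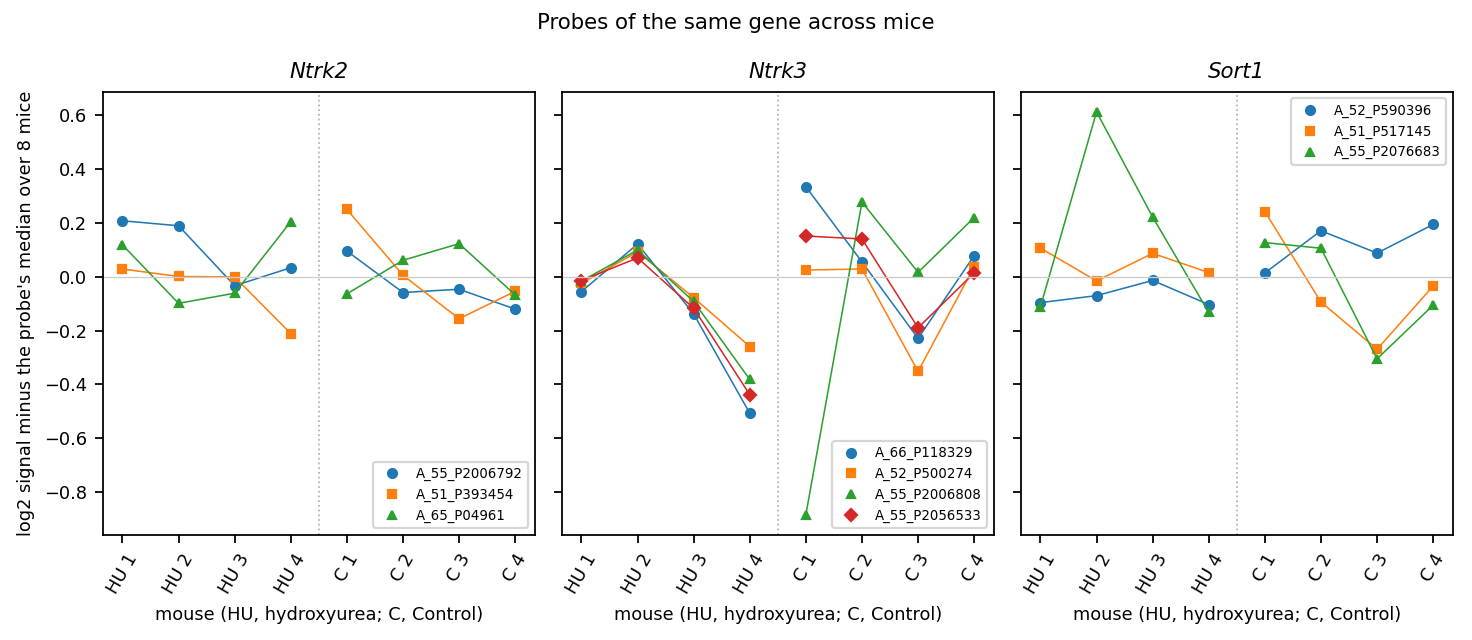
Log2 signal minus the median of that probe over 8 mice (y axis) for each probe of Ntrk2, Ntrk3 and Sort1 in each mouse (x axis), Hydroxyurea left and Control right of the dotted line, with lines that join the values of 1 probe within a group and mark no order. The Ntrk3 probes run mostly in parallel, but in Control 1 A_55_P2006808 lies below the others and A_66_P118329 above them. The Sort1 and Ntrk2 probes cross.

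Age differed within the treated group alone, where 24-week mice were set against 19-week mice. All treated mice had the same length of treatment, so the older mice had also begun it later, and age at the end and age at the start cannot be told apart. None of the 7 genes passed, with limma adjusted p = 1.0 for each of them, and 0 of 16620 genes did. An unadjusted p under 0.05 was found for 0 of 7, against 2.7% of all genes (1.26% higher and 1.44% lower). Ntrk3 had a mean of 3.67 at 24 weeks and 3.31 at 19 weeks, a difference of 0.36 ± 0.20 (SE, n = 2 per age). Ntrk2 had 3.79 at 24 weeks and 3.60 at 19 weeks, a difference of 0.20 ± 0.10, and Ngfr had -1.67 at 24 weeks and -1.33 at 19 weeks, a difference of -0.34 ± 0.17. Bdnf was alike at both ages, with 1.32 at 24 weeks and 1.33 at 19 weeks, but the 95% interval of the difference was -0.53 to 0.52. With 19-week mice alone, the difference between Hydroxyurea and Control mice was -0.38 for Ntrk3, 0.41 for Ngfr, -0.32 for Ntf3 and 0.033 for Ntrk2, and none passed.

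Markers of regions and cell types varied among the mice. All neuronal, astrocytic and CA1 markers were well above background on every array, and of the listed markers only Iyd, Cdh24 and Lhx8 were too dim to test. Bdnf moved with markers of dentate granule cells. Their score, the mean over 5 markers of the log2 signal minus its mean over the 8 mice, was -0.14, 0.16, -0.15 and -0.33 in Hydroxyurea 1 to 4, against 0.15, 0.22, -0.29 and 0.37 in Control 1 to 4. The 4 mice with a score above 0 were the 4 with the highest Bdnf values. All 5 of these markers had lower values in the treated group, with a median log2 fold change of -0.20. The log2 of their summed unlogged signals was 2.36 to 2.78 in Hydroxyurea and 2.40 to 3.06 in Control mice. With the dentate score as a covariate, a fit added after seeing the data, the Bdnf value was -0.074 (limma adjusted p = 0.747), that of Ntf3 -0.036 and that of Ntrk3 -0.035, while that of Sort1 was -0.16. Fewer cells of a type and less RNA per cell cannot be told apart in bulk tissue.

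**Figure D4:**
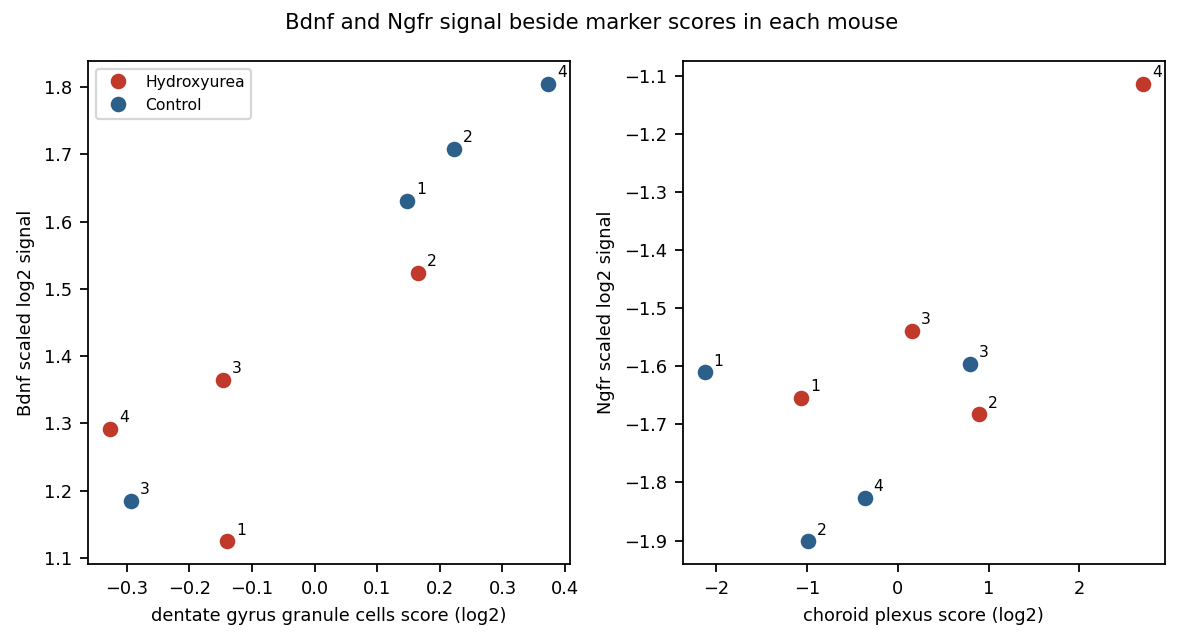
Scaled log2 signal of Bdnf against the dentate granule cell score (left) and of Ngfr against the choroid plexus score (right), with 1 point per mouse numbered by replicate, Hydroxyurea in red and Control in blue. Bdnf is highest in the 4 mice with a dentate score above 0, and Hydroxyurea 4 is highest for both Ngfr and choroid plexus.

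Ngfr was highest in the mouse with the most choroid plexus signal. The choroid plexus score over 10 markers was -1.07, 0.90, 0.16 and 2.70 in Hydroxyurea 1 to 4, against -2.13, -0.99, 0.79 and -0.36 in Control 1 to 4, and all 10 markers had higher values in the treated group. The log2 of their summed unlogged signals was 4.20 to 7.81 in Hydroxyurea and 3.13 to 6.74 in Control mice. Apart from Hydroxyurea 4, the mice did not keep the same order. Hydroxyurea 2, with the next highest choroid plexus score, had Ngfr at -1.68. Control 1, with the lowest choroid plexus score, had Ngfr at -1.61. In a fit with this score as covariate, the Ngfr value was 0.12 and the Ntrk3 value -0.018. The score of mural and meningeal markers in Hydroxyurea 4 was 0.43, against -0.43 to 0.33 in the Control mice. Markers of cholinergic neurons, whose septal fibres carry p75 but whose cell bodies lie outside the hippocampus, were dim: Chat had a mean of -2.66 in Hydroxyurea and -2.73 in Control mice. Markers of neighbouring regions were mostly higher in the treated group, with 5 of 5 thalamic (median 0.25) and 5 of 6 striatal markers (median 0.30). The thalamic score was -0.10, -0.19, 0.80 and 0.14 in Hydroxyurea 1 to 4, against -0.10, -0.24, -0.05 and -0.27 in Control 1 to 4. Hydroxyurea 3 thus stood apart in it. The striatal score was 0.23, 0.07, 0.20 and 0.13 in Hydroxyurea 1 to 4, against -0.12, -0.28, 0.08 and -0.31 in Control 1 to 4. The part of these tissues in the Ngfr value was not tested beyond these fits.

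Around the members, 108 other genes of the neurotrophin pathway were tested in 7 lists, and 0 passed the adjusted threshold. An unadjusted p under 0.05 was found for 3 genes with higher and 8 with lower values, against 3.53% and 6.36% of all genes, and the groups did not overlap for 8 of 108, against 7.47% of all genes. Their median log2 fold change was -0.0073, against -0.0038 for all genes. Of the other ligands, 5 of 6 had higher values. Ntf5, which encodes neurotrophin 4, had 0.51 ± 0.32 (SE, n = 4 per group), and Cdnf had 0.14 ± 0.08. The Ntf5 value was 0.26 without Hydroxyurea 4, 0.29 without Control 1 and 0.029 with the choroid plexus score as covariate, and that of Cdnf was 0.056 with median scaling. The TrkB ligand genes Bdnf and Ntf5 had values on opposite sides of 0, and neither passed. Of the other receptors 6 had higher and 6 had lower values, with the sortilin relative Sorcs3 at -0.13 ± 0.07, the GDNF family receptor Gfra3 at 0.12 ± 0.15 and Lingo1, a partner of p75, at 0.06 ± 0.08. These 3 values moved with single mice: Sorcs3 was -0.087 without Hydroxyurea 1, Gfra3 ranged from 0.040 without Hydroxyurea 2 to 0.24 without Hydroxyurea 4, and Lingo1 was 0.0014 without Control 1.

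Genes that process and release neurotrophins had 7 higher and 8 lower values of 15. Furin, a protease that cleaves proneurotrophins, had 0.61 to 0.69 in the Hydroxyurea mice, against 0.46 to 0.54 in the Control mice. The Furin groups did not overlap, and its log2 fold change was 0.15 ± 0.05 (SE; limma adjusted p = 0.477). With median scaling it was 0.065. Mmp2, a matrix metalloproteinase, had 0.35 ± 0.18, but 0.18 without Hydroxyurea 4 and 0.58 in 19-week mice alone. The granin gene Chgb had -0.13 ± 0.07. Trk adaptors and signalling genes had 16 higher and 14 lower of 30. Frs2, the docking protein that links activated Trk receptors to ERK signalling, had 2.42 to 2.53 in the Hydroxyurea mice, against 2.62 to 2.69 in the Control mice, again without overlap (-0.17 ± 0.05; limma adjusted p = 0.467). Shc3, a neuronal Shc adaptor, had 0.19 ± 0.07 and the kinase gene Akt1 0.27 ± 0.14. Akt1 had 3.57 in Control 1, against 4.01 to 4.20 in the other Control mice, and its value was 0.13 without Control 1. That of Shc3 was 0.11 with median scaling. Adaptors of p75 had 9 higher and 3 lower of 12, with Bex3 at 0.10 ± 0.06 and Arhgdia at 0.11 ± 0.06. Ripk2, at -0.56 ± 0.27, was well above background on only 1 Hydroxyurea array and on 4 Control arrays. It was thus tested through the Control arrays. In Hydroxyurea 1 to 3 Ripk2 had -5.66, -5.86 and -6.55. The lowest signals well above background there were -5.23, -5.04 and -5.44, so the Ripk2 difference is not read as a change. Ripk2 was at -0.31 without Hydroxyurea 3, Bex3 at 0.061 without Hydroxyurea 2 and 0.015 with median scaling, and Arhgdia at 0.024 with median scaling.

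Regulators of Bdnf transcription had 4 higher and 9 lower values of 13. Creb1, the factor that binds cyclic AMP response elements, had -1.17 to -1.02 in the Hydroxyurea mice, against -0.92 to -0.86 in the Control mice. The groups did not overlap for this Creb1 probe (-0.22 ± 0.06, SE; limma adjusted p = 0.452), but its second probe, A_52_P517730, had -3.67 to -3.45 in the Hydroxyurea mice, against -3.45 to -3.43 in Control 2 to 4 and -7.65 in Control 1. Tet1, a DNA demethylase, had -0.25 ± 0.09 by its brightest probe, -0.035 by its second probe, A_51_P512172, and -0.14 by the mean of both. Mef2c, an activity-dependent factor, had 0.24 ± 0.10, and 0.15 with median scaling. Genes induced by neurotrophins and activity had 4 higher and 17 lower of 21, with a median of -0.16. Of these, 5 had lower values at an unadjusted p under 0.05, against 6.36% of all genes, and 0 had higher values: Crh, a stress neuropeptide (-0.27 ± 0.07), Dusp6, an ERK phosphatase (-0.30 ± 0.09), Arc, which acts at active synapses (-0.48 ± 0.15), and, named after their values were seen, the immediate early genes Egr1 (-0.22 ± 0.09) and Nr4a1 (-0.37 ± 0.15). Crh had -1.24 to -1.05 in the Hydroxyurea mice, against -0.94 to -0.78 in the Control mice, without overlap. The groups overlapped for Arc, Egr1 and Nr4a1. Each of these 5 genes had its lowest value in Hydroxyurea 1, and Arc was at -0.37 without that mouse. The limma adjusted p of these 5 genes was 0.452 to 0.498. Vgf and Bdnf, which belong with these genes by their regulation, had 0.01 and -0.26.

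**Figure D5:**
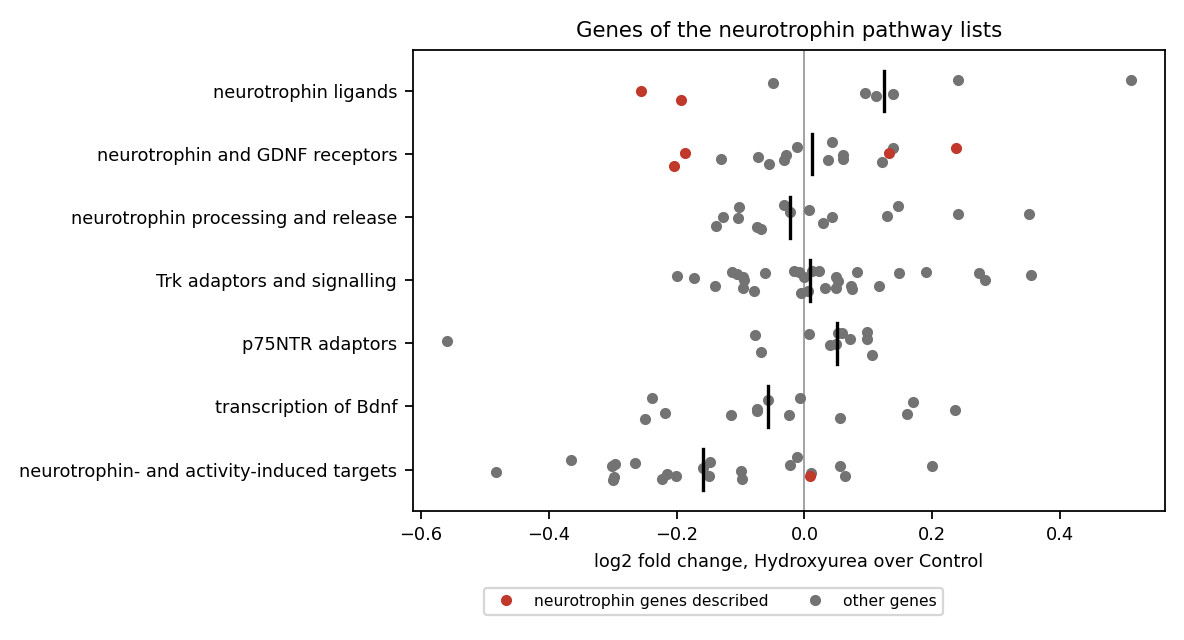
Log2 fold change of Hydroxyurea over Control (x axis) for each tested gene of 7 pathway lists (rows), with the neurotrophin genes described here in red, other genes in grey and a black bar at the median of the other genes; vertical scatter within a row has no meaning. Neurotrophin- and activity-induced targets have the lowest median, -0.16, and Bdnf and Ntf3 are the 2 lowest of the ligands.

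The gene whose values followed those of each member most closely over the 8 mice was sought among 16586 genes, as a description. For Bdnf it was Doc2b (Pearson r = 0.97, Spearman coefficient 0.98), for Ntf3 Prtg (0.97 and 1), for Ntrk2 Dsg2 (0.92 and 0.88) and for Ntrk3 Ddx6 (0.99 and 0.98). For Ngfr it was Cish (0.98 and 0.98), for Vgf Pym1 (0.97 and 0.90) and for Sort1 Bcl2l15 (0.99 and 1). Each was the highest of 16586 coefficients over 8 arrays that share scaling and tissue content. Between members, Bdnf ran with Ntf3 (r = 0.74, Spearman 0.62) and Vgf (r = 0.73, Spearman 0.69), and Ntf3 ran against Ngfr (r = -0.68, Spearman -0.95).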

How the data were processed

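RNA of 8 hippocampi was labelled with Cy3 from 200 ng each, per the labels' protocols, and hybridised to 1-colour Agilent arrays, 1 per mouse, on 1 slide with Control arrays in row 1 and Hydroxyurea arrays in row 2, so row and group cannot be told apart. Per the file headers, Feature Extraction 12.0.3.1 wrote for every spot a processed signal, an intensity after background subtraction on that array with no scaling between arrays; the deposited files also hold median spot and background intensity. The value table deposited by the authors is a z score of log signals (recomputed to within 0.005) and served for counts and directions only.

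Log2 processed signal minus the 75th percentile of each array was averaged over the spots of a probe without outlier flags. Probes were named through RefSeq accessions in a GRCm38.p6 gene table, the headers name mm9, and no probe coordinates are given. The probe with the highest mean stood for a gene. Tests needed a probe flagged as well above background on 4 or more of the 8 arrays and valued on 6 or more, which left 16620 genes and 36750 probes. Of the probes, 59.6% to 69.0% were well above background on Hydroxyurea and 62.1% to 76.7% on Control arrays, no spot was saturated, and 4 mice per group limit the precision. Each sample was 1 animal, and the labels do not say which mice shared a cage.

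Differences between groups came from limma 3.58.1 (lmFit, eBayes; R 4.3.3). Tests were two-sided, and p-values were adjusted after Benjamini-Hochberg across every gene or probe tested, with 0.05 as threshold. The age comparison took its spread from a model of 3 means, 1 for each group and age. Single values were compared by exact permutation. On simulated data with 16587 genes, the treatment fit called 51.3% of genes changed 1.5-fold and 86.4% of those changed 2-fold. The members and lists were chosen with earlier results of these data known. Named genes were all members and up to 3 others of each of 7 lists by smallest p, plus the gene most like each member; some list genes are counted but not reported by name here. Alternatives were other scalings, normexp with an offset of 50, the value table, filters, probe rules, age, marker scores, the replicate number as a block and leaving out arrays.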

Additional observations from a re-analysis of the deposited data

Results flagged for a closer look

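Values of 1 mouse stood apart from the other 3 of its group in 5 of 70 sets of 4 values examined, where chance gives about 5%. Probe A_51_P393454 of Ntrk2 had 2.50 in Hydroxyurea 4, against 2.71 to 2.74 in the other treated mice. Probe A_52_P500274 of Ntrk3 had 2.23 in Control 3, against 2.61 to 2.62 in the other Control mice. Vgf had 5.41 in Control 3, against 5.53 in each of the others. Of the pathway genes, Tet1 had -1.30 in Hydroxyurea 4, against -1.10 to -1.06 in its group, and Bex3 had 3.63 in Hydroxyurea 2, against 3.47 to 3.49. Of the 5, 2 were in Control 3 and 2 in Hydroxyurea 4, whose deviations from their group means correlated at 0.56 across genes.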

How the results depend on the processing

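No member gene passed the adjusted threshold in any alternative run. The count of genes past it was 0 throughout, with 1643 genes at an unadjusted p under 0.05. That count was 2483 with no filter on dim probes, 3518 with array weights, 2498 with the dentate score as a covariate and 1110 to 2522 when 1 mouse was left out, highest without Control 1. Lower values made up 64.3% of those genes, 90.8% with median scaling and 39.3% with no filter. Of probes, 3125 had an unadjusted p under 0.05, 6669 with no filter and 2229 to 4227 when 1 mouse was left out, where 0 to 1 passed the adjusted threshold (1 without Hydroxyurea 2). Between ages, 449 genes had an unadjusted p under 0.05, 765 with normexp and 407 to 988 when 1 treated mouse was left out, where 0 to 7 passed (7 without Hydroxyurea 4, 1 without Hydroxyurea 3). Bdnf (-0.41 to -0.074 on the log2 scale), Ntf3, Ntrk2, Ntrk3 and Ngfr kept their sign in every setting. Not every setting could turn a sign. The filters on dim probes and the replicate block left the values of these genes as in the main run. So did the mean of probes for Bdnf, Ntf3 and Ngfr, which had 1 probe each. Age as a covariate and leaving out the older mice gave the same values (Bdnf -0.25), because only treated mice were older. Sort1 turned with the mean of its probes (0.03), as Creb1 did (0.36), which rests on other probes by construction. The Creb1 mean includes the -7.65 of its second probe in Control 1. In z units, Sort1 was -0.0141 with the z score per array and -0.0125 in the deposited table. The limma adjusted p of Sort1 was 0.76 and 0.78 there, against 0.476 in the main run. Vgf turned with median scaling (-0.073), quantile scaling (-0.019), normexp (-0.046), array weights (-0.020), without Control 3 and Hydroxyurea 4 together (-0.026), and ranged from -0.020 to 0.033 when 1 mouse was left out. Ripk2 turned with normexp (0.086), and Lingo1 with median scaling (-0.022). On the z scale and in the deposited table, in z units, Chgb (0.025 and 0.030), Gfra3 (-0.016 and -0.018), Lingo1 (-0.0025 and -0.0050) and Cdnf (-0.0025 and -0.0050) turned; the cause was not tested. Probe differences with 1 mouse left out were -0.18 to 0.025 for Ntrk2 A_51_P393454 minus A_65_P04961. For Ntrk3 they were -0.24 to -0.14 for A_66_P118329 minus A_52_P500274 (-0.094 with normexp), -0.33 to 0.16 for A_66_P118329 minus A_55_P2006808, -0.089 to 0.00013 for A_66_P118329 minus A_55_P2056533 (0.0017 with normexp), -0.13 to 0.30 for A_52_P500274 minus A_55_P2006808 (-0.13 with normexp), 0.11 to 0.19 for A_52_P500274 minus A_55_P2056533 and -0.16 to 0.26 for A_55_P2006808 minus A_55_P2056533. For Sort1 they were -0.40 to -0.21 for A_52_P590396 minus A_51_P517145 and -0.21 to 0.072 for A_51_P517145 minus A_55_P2076683. With the replicate number as a block, 1317 genes had an unadjusted p under 0.05 and 0 passed, and no call changed. Same-numbered mice correlated at 0.053, 0.20, -0.21 and -0.058 in their deviations from the group means, so the numbers were not taken to pair them. The covariate fits with marker scores and the fit without Control 3 and Hydroxyurea 4 were chosen after seeing the data. Signal near background limits Gdnf, Ripk2 and Gfra3.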
